A study of Homo sapiens with 2 samples.

Results

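The growth factor receptor, RAS and MAP kinase pathway was followed through 8 genes with chromatin immunoprecipitation and sequencing (ChIP-seq) against TCF19, a transcription factor with a PHD finger. The cells were Ishikawa, a human line from an endometrial cancer. The genes were chosen by symbol and run from the receptors EGFR and ERBB2 through SOS1, NRAS, HRAS and BRAF to MAP2K1 and MAP2K2. They are 8 of the 15812 protein-coding genes that had both a gene span and a listed start site in the RefSeq tables. One group was cells infected with a TCF19-overexpressing lentivirus and the other was cells infected with a control lentivirus. Both were put through puromycin selection, both were precipitated with the same anti-TCF19 antibody, and each group had 1 library. The labels do not give the promoter that drives TCF19 in the virus, or say whether the cells came from 1 clone. With 1 library per group there is no replicate and no test of the condition. All intervals below are 95% intervals that cover counting error only. They do not measure the spread between cultures, and reads may hold PCR copies.

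In this pathway a growth factor binds a receptor tyrosine kinase, and adaptors then bring the exchange factor SOS1 to the membrane, where it loads RAS proteins with GTP. RAS recruits RAF kinases such as BRAF, which phosphorylate the MEK kinases (MAP2K1 and MAP2K2), and these activate ERK. The pathway drives proliferation in many epithelia, and endometrial cancers are known to carry changes in several of its genes, among them ERBB2 amplification in serous tumours.

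The deposited lists give called summits, the highest points of enriched intervals, with the authors' fold over the local background. The overexpression list held 111569 summits on chromosomes 1 to 22 and X, and the control list 169542. The pileup, the number of reads stacked at a summit, was recovered from the deposited values. The genome-wide background was 1.43 reads in TCF19-overexpressing cells and 1.58 in control cells, a ratio of 0.903. At TCF19 itself there were 3 summits in TCF19-overexpressing cells, of 53 to 143 reads, and 0 in control cells. Their local background was 8.09 to 8.58 times the genome-wide level. The virus carries TCF19, and reads from its copies cannot be told apart here from binding at the gene. A summit was called promoter within 1000 bp of a listed start site, body elsewhere in the gene span, and flank within 5 kb outside it. Positions are on hg38, counted from 1. No exon table was used, so a body summit may be exonic or intronic. A peak list does not measure transcripts, so neither the expression of the 8 genes nor markers of the cell type could be examined.

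Promoter summits stood at 6 of the 8 genes in TCF19-overexpressing cells and at 3 in control cells, while body summits were fewer in TCF19-overexpressing cells. The promoters of ERBB2, NRAS and MAP2K1 had a summit in TCF19-overexpressing cells alone. Those of EGFR, SOS1 and BRAF had one in both, and those of HRAS and MAP2K2 in neither. No gene had a promoter summit in control cells alone. Among all protein-coding genes 66.4% had a promoter summit in TCF19-overexpressing cells and 54.4% in control cells. A summit in TCF19-overexpressing cells alone was found at 16.4% of all genes, one in control cells alone at 4.46%, one in both at 50.0% and none in either at 29.2%. With 8 genes, 6 against 3 follows the direction of the whole lists, and nothing is read from the size of the difference. With both lists held to the same number of summits, those of highest fold, the counts were 6 of 8 genes in TCF19-overexpressing cells (66.4% of all genes) and 1 in control cells (35.5%). At a fold of at least 4 they were 4 (42.4%) and 1 (23.9%), and BRAF was the gene that stayed in control cells in both. With a promoter window of 500 bp they were 5 (60.3%) and 2 (46.2%), and with the outermost start only 6 (63.6%) and 2 (51.5%).

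The promoter sequences of the genes on which these calls turn are shown. They are the 3 with a summit under overexpression alone and the genes with the highest promoter pileup, SOS1 in TCF19-overexpressing cells and BRAF in control cells. Each sequence runs 5′ to 3′ on the strand of the gene, from 250 bases before the start site to 50 bases from it on, and is taken from RefSeq (GRCh38.p14). Capitals mark matches to 8 motifs on either strand: the GC box GGGCGG, the CCAAT box CCAAT, the ETS core CCGGAA, the E-box CACGTG, AP-1 TGANTCA, CRE TGACGTCA, the NRF1 core GCATGCGC and the TATA box TATAAA.
ERBB2 (chr17:39687844-39688143, plus strand): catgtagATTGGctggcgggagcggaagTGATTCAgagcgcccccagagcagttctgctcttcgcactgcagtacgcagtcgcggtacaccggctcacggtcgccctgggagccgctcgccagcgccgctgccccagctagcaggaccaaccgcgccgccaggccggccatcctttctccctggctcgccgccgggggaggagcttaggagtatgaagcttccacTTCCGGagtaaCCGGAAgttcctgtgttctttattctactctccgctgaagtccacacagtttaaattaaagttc
NRAS (chr1:114716722-114717021, minus strand): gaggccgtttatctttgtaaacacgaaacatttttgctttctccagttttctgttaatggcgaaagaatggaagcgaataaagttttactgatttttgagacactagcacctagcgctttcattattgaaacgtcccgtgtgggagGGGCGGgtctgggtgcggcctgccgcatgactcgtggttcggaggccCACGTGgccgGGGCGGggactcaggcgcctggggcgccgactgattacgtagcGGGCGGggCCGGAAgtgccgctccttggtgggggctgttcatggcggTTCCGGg
MAP2K1 (chr15:66386662-66386961, plus strand): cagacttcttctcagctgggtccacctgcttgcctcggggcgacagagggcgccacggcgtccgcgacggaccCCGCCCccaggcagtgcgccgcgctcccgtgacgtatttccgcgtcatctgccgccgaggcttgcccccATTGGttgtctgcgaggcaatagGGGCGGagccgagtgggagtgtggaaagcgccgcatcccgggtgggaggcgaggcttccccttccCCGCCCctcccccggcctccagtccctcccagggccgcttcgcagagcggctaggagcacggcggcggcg
SOS1 (chr2:39124819-39125118, minus strand): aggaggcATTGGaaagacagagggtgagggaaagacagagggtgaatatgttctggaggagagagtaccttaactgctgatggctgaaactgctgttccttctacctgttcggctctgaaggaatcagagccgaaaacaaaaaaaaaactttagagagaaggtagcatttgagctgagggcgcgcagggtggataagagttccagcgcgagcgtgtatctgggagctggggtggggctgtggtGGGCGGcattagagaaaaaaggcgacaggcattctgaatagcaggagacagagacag
BRAF (chr7:140924219-140924518, minus strand): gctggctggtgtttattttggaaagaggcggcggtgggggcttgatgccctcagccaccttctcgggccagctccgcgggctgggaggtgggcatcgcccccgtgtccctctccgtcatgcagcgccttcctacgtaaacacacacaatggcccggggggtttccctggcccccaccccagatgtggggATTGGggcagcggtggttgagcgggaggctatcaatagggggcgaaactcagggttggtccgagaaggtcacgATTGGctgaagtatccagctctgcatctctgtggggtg

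The 5 promoters held different motifs. ERBB2 had 2 ETS cores, 1 CCAAT box and 1 AP-1 match. NRAS had 3 GC boxes, 2 ETS cores and 1 E-box. MAP2K1 had 3 GC boxes and 1 CCAAT box, SOS1 had 1 GC box and 1 CCAAT box, and BRAF had 2 CCAAT boxes. No matches overlapped in these windows. Of the 22132 promoter windows of protein-coding genes, 56.3% held a GC box, 34.6% a CCAAT box, 21.2% an ETS core, 8.34% an E-box and 6.15% an AP-1 match. CRE (2.26% of windows), the NRF1 core (3.74%) and the TATA box (9.46%) had no match in the 5. The SOS1 window shown is that of the outer start, and no summit of either library lay inside it. The window of the inner SOS1 start, not shown, had 1 ETS core and 1 NRF1 core. These are matches of letters, and they say nothing on which factors bind.

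EGFR, which encodes the receptor for epidermal growth factor, spans chr7:55019017-55211628 on the plus strand and has 2 listed start sites, at 55019017 and 55109839. TCF19-overexpressing cells had 2 promoter summits, both at the outer start. One lay 513 bp upstream, with 14 reads (exact Poisson interval 7.7 to 23.5), and the other 580 bp downstream, with 12 reads (6.2 to 21.0). Control cells had 1 promoter summit, 537 bp downstream, with 13 reads (6.9 to 22.2). The downstream summits of the libraries lay 43 bp apart, and their pileups, each over its genome-wide background, had a ratio of 1.02 (exact conditional binomial interval 0.426 to 2.43) for overexpression over control. Just outside the window, 1204 bp downstream, TCF19-overexpressing cells had a summit of 16 reads (9.1 to 26.0), which was counted in the body. The start of the uncharacterised gene LOC105375284 lies 95 bp from that of EGFR, so these summits cannot be assigned to either gene alone. The inner start had no summit within 1000 bp in either library.

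Along the rest of EGFR the libraries had similar numbers of summits. The body held 17 in TCF19-overexpressing cells, with pileups of 7 to 18 reads and a median of 12, and 19 in control cells, with 8 to 20 reads and a median of 12. Within 100 bp, 2 of the body summits of each library had a partner in the other, and within 250 bp 8 of each did, about the length of a fragment (276 bp in TCF19-overexpressing cells and 273 bp in control cells). At 48.1 kb from the outer start there were 7 reads in TCF19-overexpressing cells and 8 in control cells, and at 93.6 kb there were 13 and 10. The summit of highest fold in the EGFR body lay 73.7 kb in for TCF19-overexpressing cells, with 17 reads (9.9 to 27.2) and 5.66-fold. In control cells it lay 59.2 kb in, with 20 reads (12.2 to 30.9) and 4.73-fold. Summits crowded there in both lists. TCF19-overexpressing cells had them at 58.9, 59.4 and 59.6 kb, with 12, 9 and 10 reads, and control cells at 59.2 and 60.3 kb, with 20 and 17 reads. In each library these summits lay in a single called interval, of 1389 bp in TCF19-overexpressing cells and 1640 bp in control cells. The overexpression summits at 93.0 and 93.6 kb also shared an interval, so counts of summits exceed counts of intervals.

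ERBB2 encodes a receptor kinase that acts as the partner of other receptors of the EGFR family, and it spans chr17:39688094-39728658 on the plus strand. Its promoter had 1 summit in TCF19-overexpressing cells, 78 bp upstream of the start and inside the sequence shown, with 14 reads (7.7 to 23.5) and 4.52-fold. Control cells had no summit in the promoter or in either flank. The same occupancy at control depth would have given 15.5 reads, and the smallest pileup that the control list called at a like background was 8. That background is the one of this summit scaled to control depth, not one measured in control cells. The counting interval is not carried over. Of the body summits without a partner within 100 bp, 22 of 22 in TCF19-overexpressing cells and 47 of 50 in control cells met the same comparison. As nearly all meet it, nothing is read from it on a missing call, here or below. The start of PGAP3, which encodes an enzyme that remodels lipid anchors of membrane proteins, lies 37 bp from that of ERBB2, and 41 bp from the summit, so the summit cannot be assigned to ERBB2 alone.

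The ERBB2 body had 4 summits in each library, with 16 to 23 reads in TCF19-overexpressing cells and 17 to 24 in control cells. At 27.9 kb from the start each library had 21 reads, 61 bp apart, and the ratio was 1.11 (0.576 to 2.13) once each was set over its genome-wide background. TCF19-overexpressing cells also had 2 flank summits, one 3397 bp upstream with 16 reads and one beyond the far end with 13 reads, 226 bp from the start of MIEN1. Local background was high here, at a median of 2.67 times the genome-wide level in TCF19-overexpressing cells and 3.81 times in control cells over the summits of the gene. A summit of 17 reads in the control body was 2.04-fold.

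**Figure D1:**
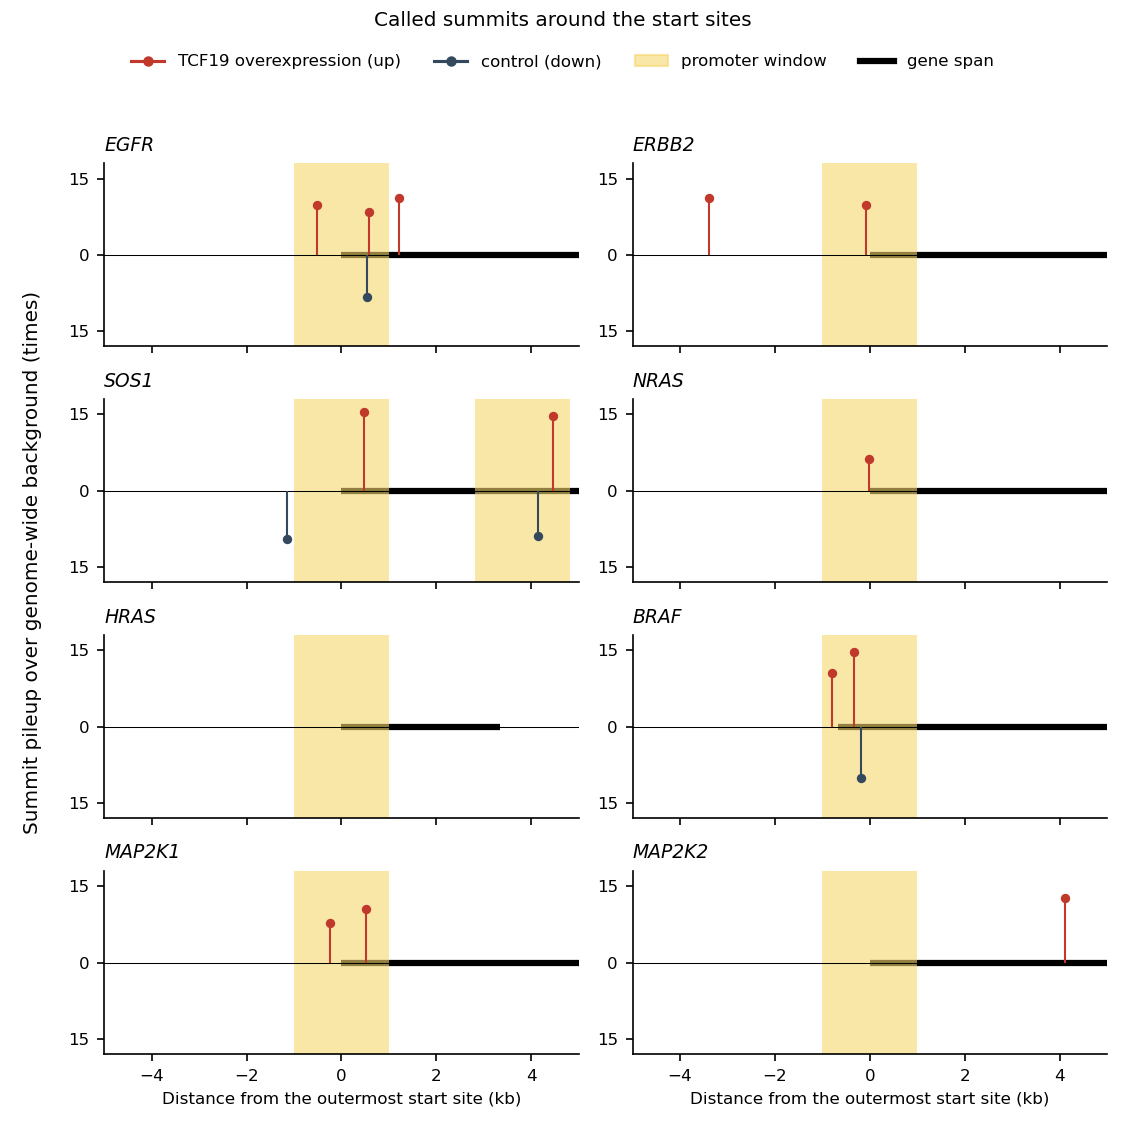
Called summits within 5 kb of the outermost start site of each gene. The x axis is the distance along transcription in kb, and the y axis is the summit pileup over the genome-wide background of its library, with TCF19 overexpression drawn upward, control drawn downward, promoter windows shaded and gene spans in black. ERBB2, NRAS and MAP2K1 have summits in the shaded windows from TCF19-overexpressing cells alone, and HRAS and MAP2K2 have none there.

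SOS1, the exchange factor that loads RAS with GTP, spans chr2:38981549-39124868 on the minus strand, with start sites at 39124868 and 39121051. In TCF19-overexpressing cells each start had a summit: one 466 bp downstream of the outer start, with 22 reads (13.8 to 33.3), and one 647 bp downstream of the inner start, with 21 reads (13.0 to 32.1). In control cells only the inner start had one, 319 bp downstream, with 14 reads (7.7 to 23.5). A control summit of 15 reads (8.4 to 24.7) lay 1152 bp upstream of the outer start, just outside the promoter window. The highest promoter pileups of the 2 libraries had a ratio of 1.74 (0.851 to 3.68) over genome-wide background, but they stand at different starts, 3670 bp apart, so this is no comparison of 1 site. At the outer start, equal occupancy would have given 24.4 reads in control cells, against a smallest called pileup of 12 at such a background. The 22 reads were at or above those of 87.6% of the 10496 promoters called in TCF19-overexpressing cells, and the 14 reads at or above those of 56.3% of the 8607 called in control cells.

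The SOS1 body showed the reverse order. It held 2 summits in TCF19-overexpressing cells, of 11 and 13 reads, and 12 in control cells, of 7 to 12 reads with a median of 9.5. Both overexpression summits had a control partner within 100 bp, at 78.3 kb (11 reads in each library) and at 70.8 kb (13 reads in TCF19-overexpressing cells and 10 in control cells). The other 10 control summits had none. For each of them equal occupancy would have reached the smallest pileup called in TCF19-overexpressing cells, such as 9.0 reads against 6 at 88.2 kb. Of the 12 control summits, 9 stood on a background at the genome-wide level, where a pileup of 6 reads was the smallest called in either list.

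NRAS and HRAS encode small GTPases that switch the kinase cascade on. NRAS spans chr1:114704469-114716771 on the minus strand and had 1 summit in each library, at different places. In TCF19-overexpressing cells it lay 21 bp upstream of the start, inside the sequence shown, with 9 reads (4.1 to 17.1) and 4.12-fold. In control cells it lay 5230 bp into the gene, with 10 reads (4.8 to 18.4) and 4.13-fold. Equal occupancy of the NRAS promoter would have given 10.0 reads in control cells, against a smallest called pileup of 6 at such a background. The 9 reads were among the lowest of called promoters, at or above 2.7% of them in TCF19-overexpressing cells.

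HRAS spans chr11:532242-535576 on the minus strand, the shortest of the 8 genes at 3.3 kb, and had no summit in either library within the gene or its flanks. Its promoter window was the most GC-rich of the 8 genes, at 78.0% GC, at or above 94.1% of all promoter windows, with 5 GC boxes, 1 CCAAT box and 1 ETS core. A missing summit means that no pileup passed the authors' threshold, and the level of HRAS below that threshold is not known.

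BRAF, the RAF kinase that phosphorylates the MEK kinases, had the promoter summits of highest fold among the 8 genes. It spans chr7:140713328-140924929 on the minus strand, and its listed start is at 140924268. TCF19-overexpressing cells had a summit 329 bp upstream, with 21 reads (13.0 to 32.1) and 7.23-fold, and another 799 bp upstream, with 15 reads (8.4 to 24.7) and 5.46-fold. Control cells had a summit 179 bp upstream, inside the sequence shown, with 16 reads (9.1 to 26.0) and 6.58-fold. The folds of 7.23 and 6.58 were the highest of any summit at the 8 genes in their lists, at percentile 98.6 of the overexpression list and 98.1 of the control list. The highest summits of the libraries lay 150 bp apart. Their ratio was 1.45 (0.723 to 2.98) over genome-wide background and 1.02 (0.505 to 2.08) over local background, which was 1.43 times the genome-wide level in TCF19-overexpressing cells and 1.00 times in control cells. The start of LOC105375536, an uncharacterised gene, lies 25 bp from the farther overexpression summit, 495 bp from the nearer one and 645 bp from the control summit. These summits therefore cannot be assigned to BRAF alone. Both overexpression summits lay in a single called interval. The nearer one is upstream of the listed start but inside the gene span, 332 bp from its edge.

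The BRAF body, 209.9 kb long, had 6 summits in TCF19-overexpressing cells, with 6 to 21 reads and a median of 7.5, and 13 in control cells, with 6 to 14 reads and a median of 9.0. At 161.0 kb both libraries had a summit, of 21 reads (13.0 to 32.1) and 7.1-fold in TCF19-overexpressing cells and of 14 reads (7.7 to 23.5) and 5.81-fold in control cells. The ratio there was 1.66 (0.806 to 3.53). At 91.3 kb the order was turned, with 8 reads (3.5 to 15.8) in TCF19-overexpressing cells and 14 (7.7 to 23.5) in control cells, a ratio of 0.633 (0.23 to 1.62). TCF19-overexpressing cells alone had a summit of 16 reads (9.1 to 26.0) and 6.75-fold at 137.1 kb, at 140787149. Equal occupancy would have given 17.7 reads in control cells there, against a smallest called pileup of 6. Most BRAF body summits of control cells without a partner met the same comparison in the other direction. At 125.8 kb it was 8.1 reads against 6, while at 151.8 kb it fell short, with 5.4 against 6.

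MAP2K1 and MAP2K2 encode the MEK kinases that activate ERK. MAP2K1 spans chr15:66386912-66491544 on the plus strand, with start sites at 66386912 and 66401879. TCF19-overexpressing cells had 2 promoter summits at the outer start, one 232 bp upstream and inside the sequence shown, with 11 reads (5.5 to 19.7), and one 509 bp downstream, with 15 reads (8.4 to 24.7). Control cells had none. The higher summit would have given 16.6 reads at control depth and the lower one 12.2, and the smallest control pileup called at a like background was 10. The start of TIPIN, which encodes a protein of the replication fork, lies 195 bp from that of MAP2K1 and 37 bp from the upstream summit, so the summits cannot be assigned to MAP2K1 alone.

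The MAP2K1 body had 3 summits in TCF19-overexpressing cells and 10 in control cells. All 3 of TCF19-overexpressing cells had a control partner, at 10.3, 31.9 and 91.0 kb, with 11, 13 and 11 reads in TCF19-overexpressing cells and 14, 12 and 16 in control cells. The 7 control summits without a partner had 9 to 15 reads. For each of them equal occupancy would have passed the smallest pileup called in TCF19-overexpressing cells, such as 11.7 reads against 7 at 85.1 kb.

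MAP2K2 spans chr19:4090321-4124122 on the minus strand, with start sites at 4124122 and 4103206, and neither start had a summit within 1000 bp in either library. TCF19-overexpressing cells had 1 body summit, 4114 bp from the outer start, with 18 reads (10.7 to 28.4) and 2.81-fold. Control cells had 2, one 6658 bp from that start, with 20 reads (12.2 to 30.9) and 2.33-fold, and one near the far end of the gene, 549 bp from it, with 23 reads (14.6 to 34.5) and 2.09-fold. The pileups were among the higher ones at the 8 genes, while the folds were low. Local background at these summits was 4.04 times the genome-wide level in TCF19-overexpressing cells and 5.07 and 6.63 times in control cells. At the last of these backgrounds the smallest pileup called in TCF19-overexpressing cells was 20. The MAP2K2 promoter at the outer start was 73.7% GC, at or above 85.1% of all windows.

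**Figure D2:**
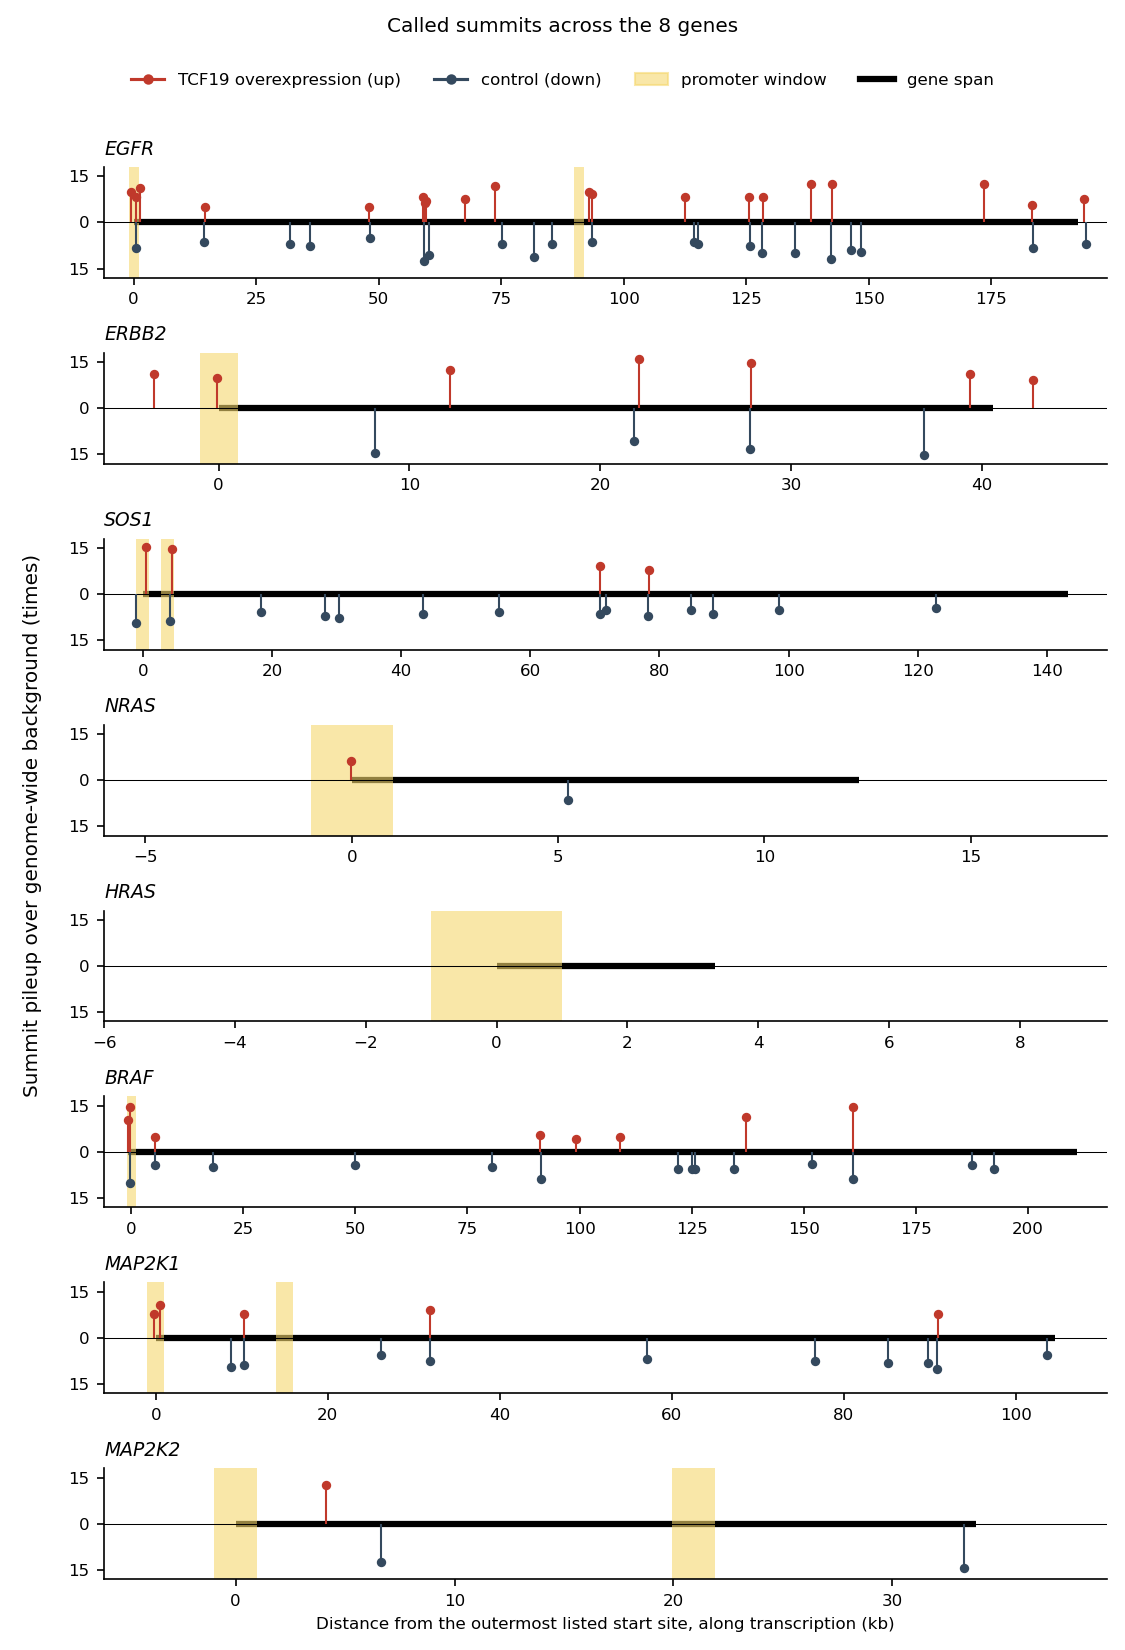
Called summits across each of the 8 genes and 5 kb beyond. The x axis is the distance from the outermost listed start along transcription in kb, drawn to each gene's own scale, and the y axis is the summit pileup over the genome-wide background of its library, with TCF19 overexpression upward, control downward, promoter windows shaded and gene spans in black. The bodies of SOS1, BRAF and MAP2K1 hold 2, 6 and 3 summits in TCF19-overexpressing cells and 12, 13 and 10 in control cells, and EGFR holds 17 and 19.

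Summed over the 8 genes, TCF19-overexpressing cells had 46 summits and control cells 66, a ratio of 0.697, close to the 0.658 of the whole lists. With each called interval counted once there were 42 and 65. Promoter summits numbered 10 in TCF19-overexpressing cells and 3 in control cells. Body summits numbered 33 and 61, and flank summits 3 and 2. Per 100 kb of gene body this was 4.55 summits in TCF19-overexpressing cells and 8.41 in control cells, a ratio of 0.541. Over all protein-coding genes it was 3.73 and 6.1, a ratio of 0.612, and promoter summits had a ratio of 1.33. Body summits stood at 6 of the 8 genes in TCF19-overexpressing cells and at 7 in control cells, against 62.7% and 67.9% of all protein-coding genes, and the 1 gene with a body summit in control cells alone was NRAS, beside 11.6% of all genes. A body count grows with the length of the gene, and the 8 genes range from 3.3 to 211.6 kb.

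At a distance of 100 bp, summits with a partner in the other library were a minority, at the 8 genes as in the whole lists. The share depended on the distance allowed, and within 250 bp most overexpression summits of the whole list had one. At the 8 genes most overexpression summits had no partner within 250 bp, but most had one by interval overlap. The share by interval overlap was not counted for the whole lists. Within 100 bp, 12 of the 46 overexpression summits (26.1%) had a partner in control cells, and 12 of the 66 control summits (18.2%) had one in TCF19-overexpressing cells. Over the whole lists these shares were 36.8% of overexpression and 24.2% of control summits. Within 250 bp they were 41.3% and 28.8% at the 8 genes and 58.3% and 38.4% over the whole lists. Counted by intervals that overlapped by at least 1 bp, 25 overexpression summits (54.3%) and 22 control summits (33.3%) at the 8 genes had a partner. Of the 12 pairs, 11 lay in gene bodies and 1 at the EGFR promoter. The pileup ratio over genome-wide background ranged from 0.633 at BRAF to 1.66, also at BRAF, with a median of 1.11, and 8 of the 12 were above 1. All 12 intervals included 1. The median over the 41041 such pairs in the whole lists was 1.11.

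**Figure D3:**
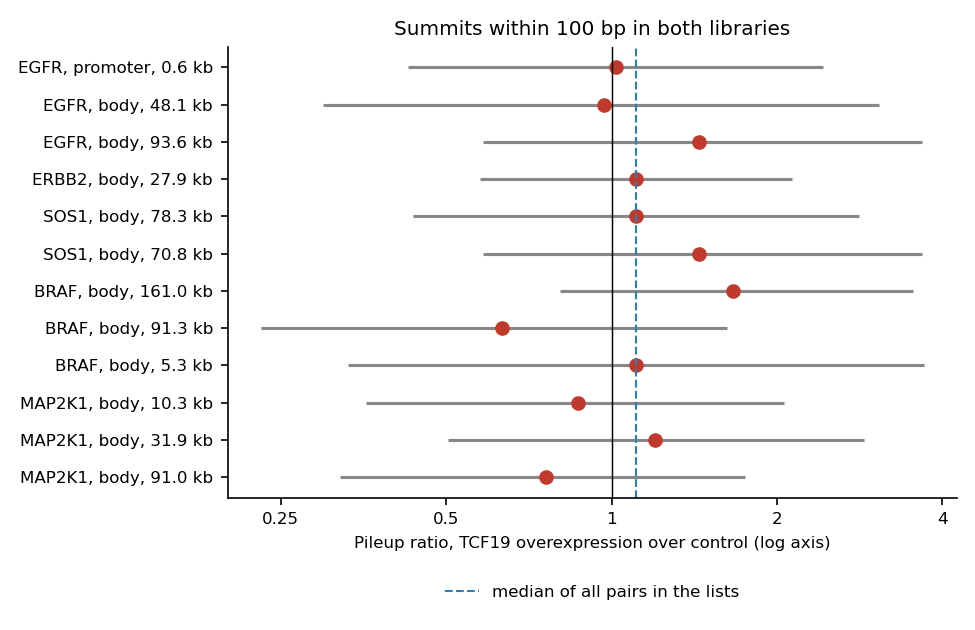
Pileup ratio of the 12 summit pairs within 100 bp of each other, TCF19 overexpression over control, each pileup taken over the genome-wide background of its library. Points are ratios on a log axis, grey lines are exact conditional binomial 95% intervals, the black line is 1 and the dashed line is the median of all pairs in the lists, 1.11. All 12 intervals cross 1.

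GC content was read from the same promoter windows. At the outermost starts, GC was 75.3% at EGFR, 60.7% at ERBB2, 51.0% at SOS1, 57.3% at NRAS, 63.0% at BRAF and 72.0% at MAP2K1, which had promoter summits, and 78.0% at HRAS and 73.7% at MAP2K2, which had none. Across protein-coding genes the median GC of the listed promoter was 65.3% where TCF19-overexpressing cells had a summit, 64.7% where control cells had one, 64.7% for TCF19-overexpressing cells alone, 55.3% for control cells alone and 54.3% where neither had one. How GC content bears on the calls was not tested.

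Other genes of the pathway were followed in a list of 54, of which 39 had a start site in the tables and 15 were not analysed here. A promoter summit stood at 35 of the 39 in TCF19-overexpressing cells and at 27 in control cells, which is 89.7% and 69.2%, against 66.4% and 54.4% of all protein-coding genes. It was seen in both libraries at 26 genes, in TCF19-overexpressing cells alone at 9, in control cells alone at 1 and in neither at 3, which is 66.7%, 23.1%, 2.56% and 7.69%, beside 50.0%, 16.4%, 4.46% and 29.2% of all genes. The split moved with the window and the fold. With a promoter window of 500 bp there were 27 pathway genes in TCF19-overexpressing cells and 25 in control cells. This is 69.2% and 64.1%, against 60.3% and 46.2% of all genes. There were 7 in TCF19-overexpressing cells alone and 5 in control cells alone (17.9% and 12.8%), against 19.2% and 5.03% of all genes. At a fold of at least 4 there were 19 and 11, which is 48.7% and 28.2%, against 42.4% and 23.9% of all genes. At that fold both shares lay closer to those of all genes than in the main setting. Among the 26 genes called in both, the highest promoter pileup was larger in TCF19-overexpressing cells at 23 and in control cells at 3, with medians of 18.5 and 15 reads. Over all called promoters the medians were 17 and 14, in the same order. The share of all genes with this order was not counted, so nothing particular to the pathway is read from 23 of 26. These are unscaled reads at the highest summit of each library, often at different places, so they are no comparison of 1 site. All 4 feedback inhibitors, which damp RAS signalling or ERK, had a summit in both libraries. SPRY1 had 31 reads (21.1 to 44.0) in TCF19-overexpressing cells and 18 (10.7 to 28.4) in control cells, SPRY2 31 (21.1 to 44.0) and 15 (8.4 to 24.7), SPRY4 24 (15.4 to 35.7) and 15 (8.4 to 24.7), and DUSP6, a phosphatase that inactivates ERK, 28 (18.6 to 40.5) and 11 (5.5 to 19.7). The 3 genes of the other order were HBEGF, an EGFR ligand, with 14 reads in TCF19-overexpressing cells and 15 in control cells, the RAS protein gene MRAS with 11 and 12, and the ERK-activated kinase gene RPS6KA3 with 18 and 22. The ligands had 5 of 6 in each library, with EGF in neither.

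The receptors had 8 of 9 genes in TCF19-overexpressing cells and 5 in control cells, beside 66.4% and 54.4% of all protein-coding genes. The roles hold 1 to 9 genes each, so nothing is read from differences between roles, here or below. INSR (the insulin receptor), PDGFRA and PDGFRB (receptors for platelet-derived growth factor) had a summit in TCF19-overexpressing cells alone. Their highest summits had 17, 16 and 17 reads, with folds of 3.81, 2.42 and 3.15, all below 4. FGFR3 had no summit in either library. Distances to the starts of neighbouring genes are not given for the pathway genes, so their summits may be shared with other genes. MET, the receptor for hepatocyte growth factor, had the highest promoter fold of the list in both libraries, at 7.61-fold with 19 reads (11.4 to 29.7) in TCF19-overexpressing cells and 6.2-fold with 15 (8.4 to 24.7) in control cells. After it came AREG, which encodes the EGFR ligand amphiregulin (6.92-fold), and FRS2, an adaptor of FGF receptors (6.07-fold), in TCF19-overexpressing cells. In control cells SPRED1, an inhibitor of RAS signalling (5.94-fold), and KIT, the receptor for stem cell factor (5.4-fold), followed MET.

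Downstream of the receptors, the genes with a promoter summit in TCF19-overexpressing cells alone were the adaptor SHC1 (17 reads, 9.9 to 27.2), the RAS inhibitors NF1 (15 reads, 8.4 to 24.7) and SPRED2 (25 reads, 16.2 to 36.9), the RAF kinase ARAF (12 reads, 6.2 to 21.0), the ERK gene MAPK3 (13 reads, 6.9 to 22.2) and the ERK-activated kinase RPS6KA1 (15 reads, 8.4 to 24.7). FOS, an immediate early transcription factor induced by ERK, had a summit in control cells alone, with 16 reads (9.1 to 26.0). EGR1, another immediate early gene, had none in either. By role, adaptors and exchange factors had 4 of 4 genes in TCF19-overexpressing cells and 3 in control cells, RAS proteins 2 of 2 in each, RAS inhibitors 4 of 4 and 2, RAF kinases and scaffolds 3 of 3 and 2, ERKs 1 of 1 and 0, and targets 4 of 6 in each.

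**Figure D4:**
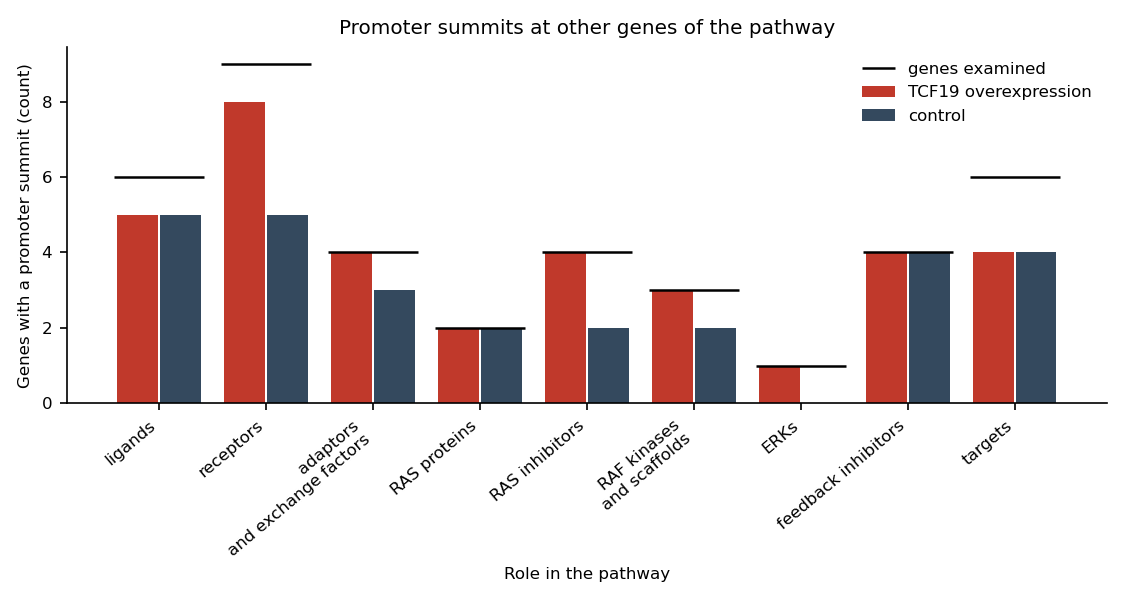
Number of other pathway genes with a promoter summit, by role, in TCF19 overexpression (left bars) and control (right bars). The black line over each pair is the number of genes examined. Over all protein-coding genes the shares are 66.4% and 54.4%, and nothing is read from differences between roles. Receptors stand at 8 and 5 of 9 genes, RAS inhibitors at 4 and 2 of 4, and feedback inhibitors at 4 of 4 in both libraries.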

How the data were processed

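ChIP-seq libraries of 2 groups, 1 each, were used. The submitters' processing notes name BWA 0.7.12, MACS2 2.1.0 and the build hg38. The labels do not state parameters, duplicate handling or use of an input. The deposited lists hold, per summit, the authors' score, fold (a ratio of pileup to local background), −log10 q-value, −log10 p-value and summit offset. Folds are the authors' values and only rank or filter summits within a list.

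Summits were placed at column 2 + column 10 + 1. Pileup and background were solved from the fold, (pileup + 1) / (background + 1), and the Poisson p-value, with a misfit of at most 0.001. This gave whole reads at 99.997% of overexpression and 99.998% of control summits. Local background was whole reads per 10 kb (within 0.05) at 100.0% of summits above the floor in both lists, for fragments of 276 and 273 bp. It thus matched the ChIP library's own reads, and no correction by an input can be read from the folds. A smallest called pileup was taken over summits of the other list with a background within 5% of the scaled one.

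Start sites, strands and promoter sequences came from the RefSeq promoter table, and spans from the gene table (GRCh38.p14), where all 8 genes matched. Every listed start was used. Alternatives were promoter windows of 500 and 2000 bp, flanks of 0 and 10 kb, a −log10 q-value of at least 2, a fold of at least 4, lists of equal length, interval overlap, intervals counted once, pairs within 250 bp and other scalings. Named genes were the 8 members, pathway genes called in 1 library alone and the 3 of highest promoter fold in each library; others that are named, such as the feedback inhibitors and those called in neither library, were chosen after their values were seen. Members and lists were chosen with earlier results of these data known. The steps were tested on simulated data. Python 3.11.15, scipy 1.17.1 and pandas 2.3.3 were used.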

Additional observations from a re-analysis of the deposited data

How the results depend on the processing

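Of 50 alternative values over 13 results, 40 stayed within 1.5 times the reported count or inside the reported interval, and 10 moved; for the values below the cause was not tested unless the setting itself gives it. With both lists held to the same number of summits, those of highest fold, the overexpression list was whole and stayed at 6 of the 8 genes with a promoter summit, 35 pathway genes and 46 summits at the 8 genes, while control cells had 1 (BRAF), 17 and 38; fewer control summits enter by construction, and 35.5% of all genes then had a control promoter summit. At a fold of at least 4, TCF19-overexpressing cells had 4 genes (ERBB2, SOS1, NRAS and BRAF) and control cells 1 (BRAF), against 42.4% and 23.9% of all genes. The pathway counts, an alternative chosen after seeing the data, were 19 and 11, which is 48.7% and 28.2% of the pathway list. Partners numbered 19 in each library within 250 bp, where the body summits of EGFR went to 8 in each against 2, and 25 in TCF19-overexpressing cells and 22 in control cells by interval overlap. With a window of 500 bp EGFR lost its promoter call in both libraries, leaving 5 genes in TCF19-overexpressing cells and 2 in control cells. With the outermost start only, chosen after seeing the data, SOS1 lost its control call, leaving 6 genes in TCF19-overexpressing cells and 2 in control cells. Depth limits the comparison: at genome-wide background 6 reads was the smallest pileup called in either list, and the pileup intervals of the 2 libraries overlapped at every pair of the 8 genes. No paired analysis was possible because each group has 1 library.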

Other observations

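The bodies of the other pathway genes were also covered by more control summits. The 39 genes held 153 body summits in TCF19-overexpressing cells and 259 in control cells, or 3.49 and 5.91 per 100 kb, a ratio of 0.591 beside 0.612 over all protein-coding genes. The counts at long genes, chosen after their values were seen, were 7 in TCF19-overexpressing cells and 21 in control cells at NF1, whose product switches RAS off, 19 and 40 at KSR2, a scaffold of the kinase cascade, 17 and 30 at IGF1R, the receptor for insulin-like growth factor, and 21 and 31 at ERBB4, a receptor of the EGFR family. Over all 39 genes, body summits were more in TCF19-overexpressing cells at 6, more in control cells at 22 and equal at 11. The 6 were PDGFRB (5 in TCF19-overexpressing cells and 1 in control cells), INSR (11 and 10), KSR1 (9 and 8), and ARAF, MAPK3 and JUN (1 and 0 each). Of the 16 genes over 100 kb, 2 had more in TCF19-overexpressing cells, 13 had more in control cells and 1 had equal numbers. The shares of all protein-coding genes with these orders were not counted. Over all of those genes control cells also had more body summits, 62968 against 38544 in TCF19-overexpressing cells. Nothing particular to the pathway is therefore read from either tally.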
